A study of Rattus norvegicus with 6 samples.

Results

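Hippocampal expression on days 45, 55 and 70 of chronic cerebral hypoperfusion was set against expression in controls and on day 35. The late set held 3 arrays and its counterpart 2, together 5 of the 6 arrays of the series. The remaining array, day 21, stood outside the comparison and is given beside it. A gene was counted as not overlapping where all 3 late values lay above, or all below, both the control and the day 35 value. Of 12447 genes measured on all 5 arrays, 3198 did not overlap, or 25.7%. With so few arrays many genes would not overlap even if the sets did not differ, and the count carries no test.

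All animals were male Wistar rats, and those of every group but the control had both common carotid arteries permanently tied off under isoflurane (BCCAo). Per the labels the late rats were 15 weeks old on day 45, 16 on day 55 and 17 on day 70. The control rats were 12 weeks old, those of day 35 were 14 and those of day 21 were 13. Each array held 1 pool of RNA. How many rats made up a pool, and whether controls had a sham operation, the sources used here do not state. All 3 late arrays shared 1 slide, while a second slide carried the control together with days 21 and 35. Time after occlusion, age and slide therefore cannot be told apart in any difference between the 2 sets.

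Tying off both carotid arteries leaves the forebrain to be fed by the vertebral arteries through the circle of Willis, and blood flow to the hippocampus is lowered for long. The hippocampus, a seat of memory whose CA1 pyramidal cells are known to be sensitive to lack of oxygen, holds resident immune cells, the microglia. These are known to take up debris and to make complement and lysosomal proteases when neurons are injured, while astrocytes respond with a reactive program of their own.

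Levels are log2 signals relative to the 75th percentile of their own array, so a level of 0 stands at that percentile, which lay between 1243 and 1504 intensity units. Of the spots on an array, 74.5 to 80.2% were well above background. Of markers on the array, 15 of 16 of CA1 to CA3 pyramidal cells and 11 of 12 of dentate granule cells were measured on all 5 arrays. So were 12 of 12 thalamus markers and 10 of 13 striatum markers. Such counts therefore do not set hippocampus apart from neighbouring tissue. Differences are late mean minus the mean of control and day 35, with the standard error of limma's moderated fit. A gene was called at an adjusted p under 0.05, with Benjamini-Hochberg adjustment over all 20344 probes tested. The arrays of a set are different time points and not replicates, so the p-values measure the spread between pools of a set, and precision is limited by how few arrays there were.

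The difference between the sets was mostly a fall in weakly expressed genes. The late set was lower in 2147 genes that did not overlap, 17.2% of those tested, and higher in 1051, or 8.44%. limma called 365 genes lower, 2.93%, and 2 genes higher, 0.0161%. A gap of at least 2-fold between the nearest values of the 2 sets separated 105 lower genes, 0.844%, and 1 higher gene, 0.00803%. The 105 became 10 with normexp background correction, 24 on the authors' deposited values, 34 after a centring by level and base composition, 53 after quantile normalization and 67 after cyclic loess, and 171 with probes measured on 3 of the 5 arrays let in. It became 182 without day 55 and 228 without day 35. The median difference was -0.34 among the genes that did not overlap lower and 0.12 among those that did not overlap higher, and -0.02 over all genes. All 367 called genes were among those that did not overlap.

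The counts moved with single arrays. Without the control array limma called 0 genes, with 956 at an unadjusted p under 0.05 against 1226 on all 5 arrays. Without day 70 it called 53 genes lower, without day 35 it called 78, and without day 45 it called 166. The excess of lower genes among those not overlapping, 67.1% of them, also depended on the scaling. It was 36.1% with arrays scaled to their median, 41.6% after quantile normalization, 42.3% in the authors' deposited value table and 46.1% after cyclic loess. Among called genes the lower share stayed at 96.5% or above under each of these.

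At the edge of the call, Psgb1 had a difference of -0.82 with an adjusted p of 0.0493 in limma, and Frg2b one of -0.67 with 0.0501. At the edge of overlap, Sp1 had a gap of 2.37e-05 and Lrp4 one of -1.25e-05, which is an overlap, so membership among genes that did not overlap turned on less than the spread between spots for the nearest ones. That spread, the median SD of probes printed 10 times, was 0.051 to 0.072 on these 5 arrays.

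Level set where the calls lay. With genes split by level into terciles, 297 of 4149 were called lower in the dimmest tercile, in the middle tercile 61 and in the brightest tercile 7. The share that did not overlap lower was 31.5% in the dimmest tercile and 6.58% in the brightest, and the share that did not overlap higher was 4.46% and 13.1% in the same terciles. In the brightest tercile, differences between a late array and an array of the other set had an SD over genes of 0.126 to 0.184, against 0.149 to 0.172 between late arrays and 0.156 between day 35 and control. There the SD across the sets exceeded that of every pair within a set only for day 55 minus day 35, at 0.184. In the dimmest tercile the SD was 0.450 to 0.513 across the sets, against 0.332 to 0.363 between late arrays and 0.322 between day 35 and control.

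**Figure D1:**
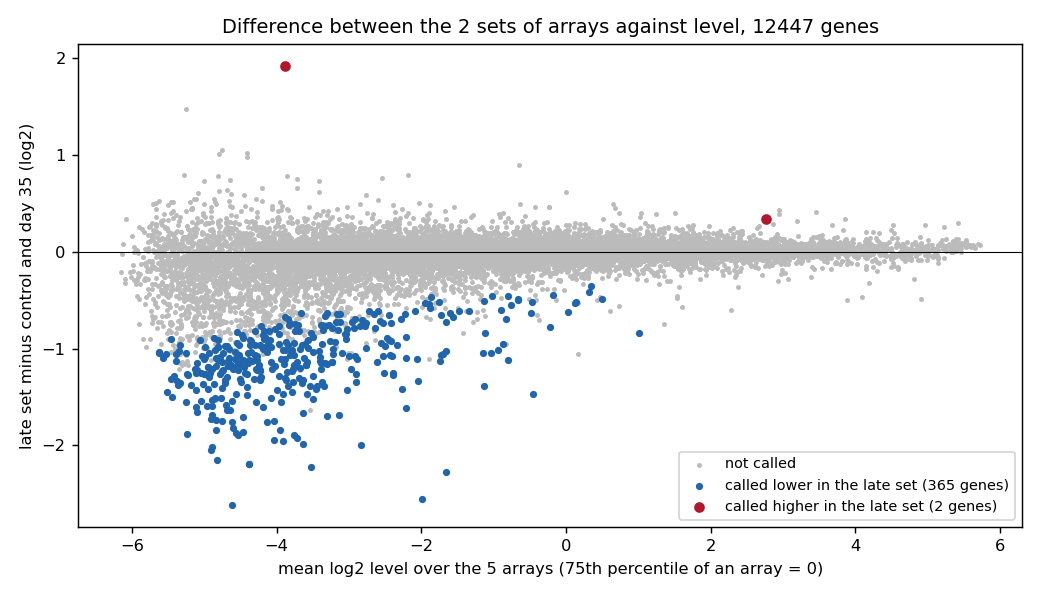
Difference between the late set and control with day 35 (y axis, log2) against the mean log2 level over the 5 arrays (x axis), 1 point per gene for 12447 genes. Blue points are the 365 genes called lower, most of them at low levels, and red points are the 2 called higher.

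Among genes with the most negative called differences, Igf2bp2, which encodes a protein that binds mRNA of insulin-like growth factor 2, had levels of -3.20, -2.98 and -2.86 on days 45, 55 and 70, against -0.35 in control and -0.56 on day 35. The 2 sets were 2.29 apart at their nearest values, and day 21, at -0.06, lay above all of them. The difference was -2.56 ± 0.13 (SE), a 5.88-fold lower level, with an adjusted p of 0.0023 in limma. Arid3a, a DNA-binding transcription factor with an AT-rich interaction domain, had -2.90, -2.48 and -2.32 on the late days, against -0.33 in control and -0.27 on day 35. It fell by 2.27 ± 0.17 (SE) with an adjusted p of 0.0065 in limma. Its day 21 level of -1.84 lay between the sets and nearer to the late one. A second probe of Arid3a had a difference of -0.41. Trim42, of the tripartite motif family, had -4.70, -4.32 and -4.19 late, against -2.12 in control and -2.25 on day 35, with day 21 at -3.40. Its difference was -2.22 ± 0.18 (SE). So day 21, which shares the slide of control and day 35, did not stand with them for Arid3a and Trim42.

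Or6b13, an olfactory receptor gene, had the most negative difference of the named genes, -2.61 ± 0.32 (SE), with an adjusted p of 0.0116 in limma. Its levels were -5.42, -5.62 and -5.94 on days 45, 55 and 70, against -2.54 in control and -3.56 on day 35. The nearest values were 1.87 apart, and day 21, at -2.89, lay between control and day 35. Or12d2b and Or4c122, of the same superfamily, differed by -2.15 and -2.04. Or12d2b had -5.83, -5.41 and -5.83 late, against -3.32 in control and -3.74 on day 35. Or4c122 had -5.87, -5.61 and -5.69 late, against -3.42 in control and -3.93 on day 35. All 3 receptors had late levels near the floor of what could be measured, since the dimmest gene tested had a mean level of -6.15.

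Cfi, complement factor I, the protease that cleaves C3b and C4b, was measured by a probe printed 10 times. Its levels were -5.86, -5.03 and -4.91 late, against -3.23 in control and -2.92 on day 35, a difference of -2.19 ± 0.30 (SE) with an adjusted p of 0.015 in limma. Ugt2b37, a UDP-glucuronosyltransferase gene, had -5.26, -5.07 and -5.43 late, against -2.89 in control and -3.25 on day 35, and differed by -2.19 ± 0.19 (SE). In both genes day 21 lay above control and day 35, at -2.68 and -2.86.

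The other 3 genes of the 10-spot probes that led the lower side were Nnmt, Cd3d and Hamp. Nnmt, nicotinamide N-methyltransferase, had -2.93, -2.79 and -2.97 late, against -1.58 in control and -1.68 on day 35. Cd3d, a chain of the T cell receptor complex, had -2.98, -2.79 and -2.91 late, against -1.65 in control and -1.62 on day 35. Values within a set lay close together in both genes, and the sets were 1.12 and 1.14 apart. Hamp, which encodes the iron hormone hepcidin, had -5.64, -5.46 and -5.59 late, against -4.18 in control and -4.22 on day 35. The differences were -1.27 ± 0.11 for Nnmt, -1.26 ± 0.11 for Cd3d and -1.37 ± 0.16 for Hamp (SE), each called by limma. Day 21 lay above control and day 35 in all 3 genes, at -1.37, -1.49 and -4.12.

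**Figure D2:**
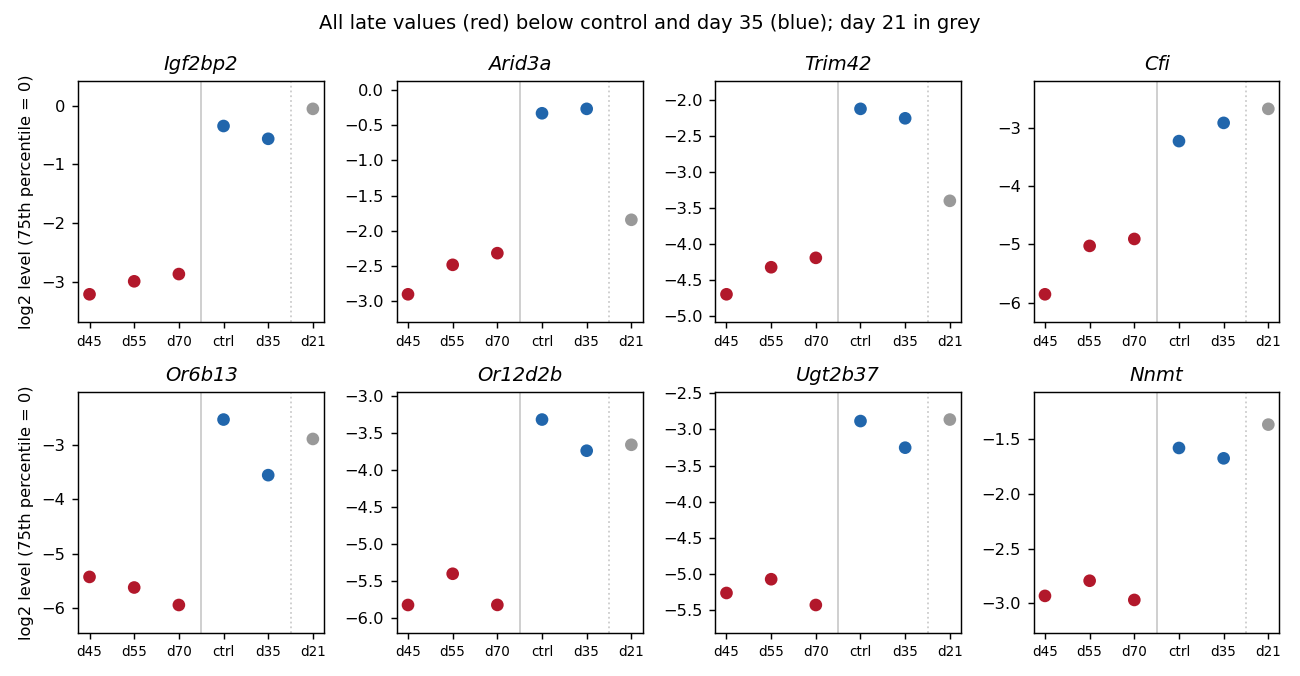
Log2 level (y axis, 0 is the 75th percentile of the array) of 8 genes called lower, 1 point per array: days 45, 55 and 70 in red, control and day 35 in blue and day 21 in grey. The red points lie below the blue points in every panel, and day 21 lies nearer the red points for Arid3a and Trim42.

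In the brightest tercile of genes, 6 of the 7 calls fell under the rule for naming. Otx1, a homeobox transcription factor of forebrain development, had 0.37, 0.80 and 0.82 late, against 1.46 in control and 1.55 on day 35. It fell by 0.84 ± 0.14 (SE) with an adjusted p of 0.0275 in limma. Il2rg, the shared gamma chain of several interleukin receptors, had 0.26, 0.24 and 0.40 late, against 0.75 in control and 0.84 on day 35, and fell by 0.49 ± 0.08 (SE). These falls were smaller than those of the dim genes, 1.80-fold for Otx1 and 1.41-fold for Il2rg. Olfm5 fell by 0.62 ± 0.09, Alpk3, an alpha kinase of muscle, by 0.53 ± 0.11 and the vomeronasal receptor gene Vom2r15 by 0.52 ± 0.09 (SE). Sdhaf3, an assembly factor of succinate dehydrogenase, fell by 0.42 ± 0.07 (SE), but a second probe of it had a difference of 0.11, in the other direction. When limma tested only probes above the median signal, it called 2 genes lower and 0 higher, with 264 at an unadjusted p under 0.05, and none of the 6 kept its call.

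Sensory receptor and epithelial genes recurred on the lower side. They were taken by their symbols as families after the values were seen, and carry no test. Of 1097 olfactory receptor genes on the array, G protein-coupled receptors of the nasal epithelium, 82 were measured on all 5 arrays. Of these, 67 did not overlap lower and 0 did not overlap higher, 35 were called lower, and the median difference was -0.89 with a range of -2.61 to 0.21. Over all genes 17.2% did not overlap lower and 8.44% higher. Beside the 35 calls, 2.93% of all genes and 7.16% of the dimmest tercile were called lower, and 72 of the 82 receptors were in that tercile. Of those 72, 48.6% were called, against 6.43% of the other genes of the tercile. With at least 60% C and T in the probe, 51.4% of 37 receptors of the tercile were called, against 24.9% of 374 other genes. The median C and T was 65% in these receptors and 61.7% in those other genes, so the groups were not matched in composition. The centring by level and base composition described below left 10 of the 82 called, with a median of -0.47. Of 19 vomeronasal receptor genes, which serve pheromone sensing, 7 were called lower with a median of -0.49. Of 12 defensin genes, antimicrobial peptides of epithelia, 4 were called lower with a median of -0.72, and of 11 keratin genes 2 were, with a median of -0.52. Of these 3 families 13, 11 and 10 genes were in the dimmest tercile. For 2 large families taken beside them, 5 of 202 Zfp zinc finger genes and 10 of 258 solute carrier genes were called lower, each with a median of -0.02. The olfactory receptor median stayed negative under every alternative tried, between -0.99 and -0.32, while the number called ran between 0 and 45.

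The probes of called lower genes shared a base composition that the rule had not used. Over all 20344 tested probes 3.68% were called lower. By the share of C and T in the probe, it was 0.640% of probes with up to 40% C and T and 13.1% of those above 60%. In the dimmest tercile of probes the same classes had 1.25 and 30.2% called lower, and median differences of -0.07 and -0.60. In the brightest tercile they had 0 and 1.36%, with medians of -0.0059 and -0.0011. A rise with GC content was also seen: in the dimmest tercile 1.44% were called lower up to 35% GC and 15.2% above 55% GC. The mean share of C was 28.3% in probes called lower and 22.0% in all tested probes, and that of A was 22.1% and 28.7%, while G differed less, at 21.7% and 22.7%.

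In the dimmest tercile the trend with C and T was smaller between arrays of 1 slide, but not over all probes. In that tercile, from the lowest to the highest class, the median of day 35 minus control ran from -0.06 to -0.21, that of day 70 minus day 45 from 0.09 to -0.04, and that of day 55 minus day 45 from 0.18 to 0.16. The median of day 21 minus the mean of control and day 35 ran from 0.01 to -0.06. The late set against control and day 35 ran from -0.07 to -0.60 there, the steepest of these contrasts. Over all probes it ran from -0.03 to -0.10, less steeply than day 35 minus control, from 0.0013 to -0.08, and day 70 minus day 45, from 0.09 to -0.02. In the middle tercile it ran from -0.03 to -0.11, against -0.0050 to -0.10 for day 35 minus control and 0.08 to -0.04 for day 70 minus day 45. In the brightest it was flat, while day 70 minus day 45 ran from 0.09 to -0.0052. After each array was centred within classes of level, C and T content and GC content, an alternative added after the data were seen, limma called 102 genes lower, all among the 365. Of the 28 named genes called in either direction 17 kept their call.

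**Figure D3:**
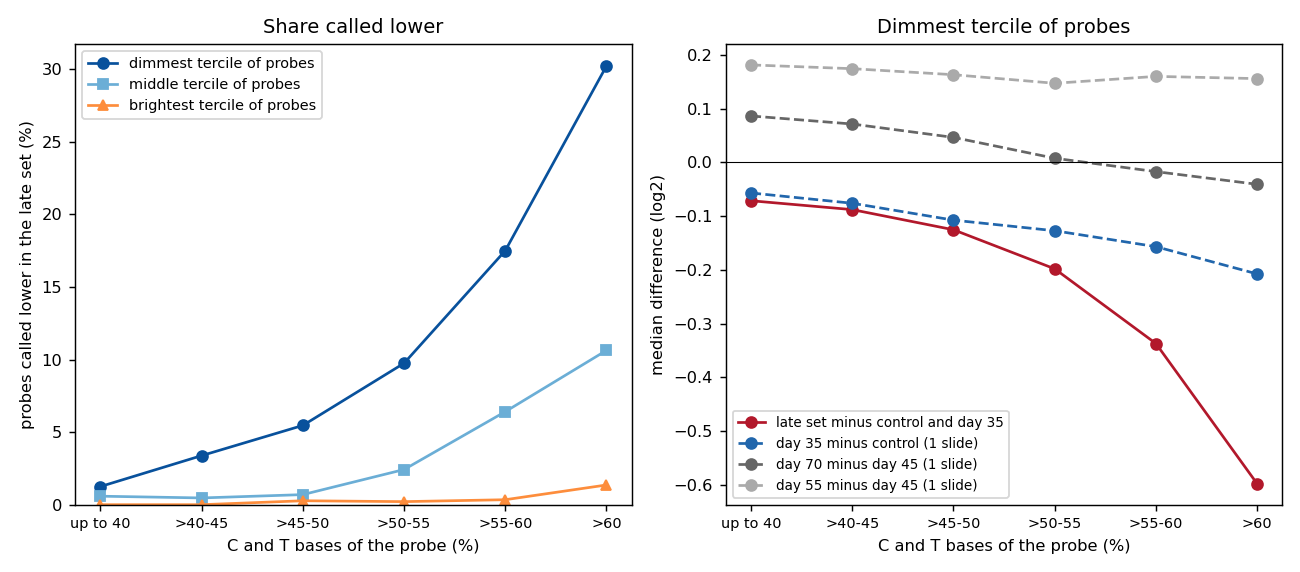
Left, share of probes called lower in the late set (y axis, %) by the C and T content of the probe (x axis, %) for terciles of probes by level. Right, median difference (y axis, log2) in the dimmest tercile for the late set against control with day 35 and for 3 contrasts between arrays of 1 slide. The red line reaches -0.60 above 60% C and T, where the others lie between -0.21 and 0.16.

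Probe sequences of named lower genes are given to show this composition. Capitals mark runs of at least 4 bases that are all C or T. The called olfactory receptor genes Or12d2b and Or4c122, with C and T in 70% of the probe, are shown whole, with the receptor of the most negative difference, whose probe held 43.3% C and T, below them.
Or12d2b: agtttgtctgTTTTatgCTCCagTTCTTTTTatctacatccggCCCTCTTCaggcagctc
Or4c122: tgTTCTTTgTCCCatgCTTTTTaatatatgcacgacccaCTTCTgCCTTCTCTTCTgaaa
Or6b13: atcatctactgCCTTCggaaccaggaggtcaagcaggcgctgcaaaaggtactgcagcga
In build rn4 the files place these probes at chr20:1365652-1365711 (+ strand), chr3:73569687-73569746 (- strand) and chr1:200028997-200029056 (- strand). For 4 further called lower genes, the 30 bases of the probe richest in C and T are shown, the first 2 from C- and T-rich probes and the last 2 from the probes with the least C and T among the named lower genes.
Ugt2b37: TCCTTCTggCCTCTTaaaTCTTTCCaTCCT
Il2rg: CTCCCTCCCTTTTTCTacctaccattcaac
Arid3a: tgcccgtatgcataggacgcagatggctgc
Igf2bp2: caggcgcagaaataCCCTCagggagtcgcc
Their probes lie at chr14:22422764-22422822 (+), chrX:89342063-89342122 (-), chr7:11289919-11289978 (-) and chr11:81214322-81214381 (+). The median number of bases in such runs was 18 in probes called lower and 10 in all tested probes. The word CTCC, searched on the probe strand, was in 49.4% of probes called lower and in 21.3% of all tested, and its overlapping neighbour CCTC in 51.1 and 21.9%. The reverse complement GGAG was in 19.6 and 24.9%. Igf2bp2, Arid3a, Trim42 and Or6b13 are called lower genes with little C and T in their probes. All 4 kept their call after the centring by composition, but each probe had 55% GC. Over all probes, 7.78% of those above 50 and up to 55% GC were called lower, against 0.584% up to 35% GC. Whether composition had a part in these 4 calls was not tested.

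Day 21, an array the comparison did not use and which lay on the slide of control and day 35, stood on their side for most called genes. Of the 365 genes called lower, day 21 lay above all 3 late values in 303 and was nearer the mean of control and day 35 in 280, or 76.7%. Of the 2147 genes that did not overlap lower, day 21 was nearer that mean in 58.3%. It lay above all late values in 1341 of them and below all in 395. Over all genes tested it was nearer that mean in 50.5%. Of the 1051 genes that did not overlap higher, 525 had a day 21 value nearer control and day 35, and in 322 it lay above all late values. Day 21 differed from the other arrays in its own right, since in the brightest tercile its differences from each of them had an SD of 0.255 to 0.286.

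On the higher side limma called Kdm4d and Ctss. Kdm4d, a demethylase of histone H3 lysine residues, had -3.42, -2.96 and -2.99 on days 45, 55 and 70, against -5.05 in control and -5.03 on day 35. Its difference was 1.91 ± 0.18 (SE), a 3.77-fold higher level, with an adjusted p of 0.0079 in limma, and its sets were 1.61 apart. Day 21, at -5.25, stood with control and day 35. Leaving out the control array ended this call, at an adjusted p of 0.0897. Ctss, cathepsin S, a lysosomal protease of microglia that trims the invariant chain of MHC class II, had 2.92, 2.83 and 2.92 late, against 2.53 in control and 2.59 on day 35. The difference was 0.33 ± 0.06 (SE), a 1.26-fold higher level, with an adjusted p of 0.0384 in limma. Day 21, at 3.68, lay above all 5. Ctss lost its call when any 1 of the 5 arrays was left out, with adjusted p of 0.0506 to 0.269, and with normexp at 0.0761.

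No other gene of the higher side was called, and those that follow are given by their values. In the brightest tercile the widest gaps after Ctss were those of Trem2, Ngdn and Lyz2. Trem2, a microglial receptor for lipids and apoptotic cells, had 1.05, 0.74 and 0.88 late, against 0.50 in control and 0.48 on day 35, with 3.02 on day 21. Lyz2, lysozyme of macrophages, had 1.80, 1.80 and 2.01 late, against 1.59 in control and 1.59 on day 35, with 2.83 on day 21. Ngdn, neuroguidin, a factor of ribosome assembly and translation, had 0.79, 1.01 and 0.73 late, against 0.52 in control and 0.18 on day 35, with 0.49 on day 21. Trem2 and Lyz2 thus stood far higher on day 21 than on any other array, and Ngdn did not. Adjusted p in limma was 0.0936 for Trem2, 0.174 for Lyz2 and 0.106 for Ngdn. Gpatch4 had a difference of 0.34 ± 0.11 (SE).

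Among all levels the widest gaps after the called genes were those of Tmem144, Prss22, Tdrd5, Mafk, Fmo2 and Aspg, between 0.32 and 0.42. Aspg, an asparaginase gene listed here among those of reactive astrocytes, had -2.11, -2.12 and -2.49 late, against -3.18 in control and -2.82 on day 35, with -0.63 on day 21. Its difference was 0.76 ± 0.17 (SE), with an adjusted p of 0.0684 in limma. Mafk, a small Maf transcription factor, had a difference of 0.52 ± 0.16, and Fmo2, a flavin monooxygenase gene, one of 0.65 ± 0.20 (SE). Of the 10-spot probes, Mt2A, a metallothionein that binds zinc and copper, had 3.39, 2.94 and 2.95 late, against 2.66 in control and 2.76 on day 35, with 4.82 on day 21. Its second probe had a difference of 0.25 beside 0.38. Clec10a, a lectin of macrophages, had a difference of 0.38 ± 0.12, Aadat, which makes kynurenic acid, one of 0.41 ± 0.11, and Ripk3, a kinase of necroptosis, one of 0.24 ± 0.13 (SE).

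**Figure D4:**
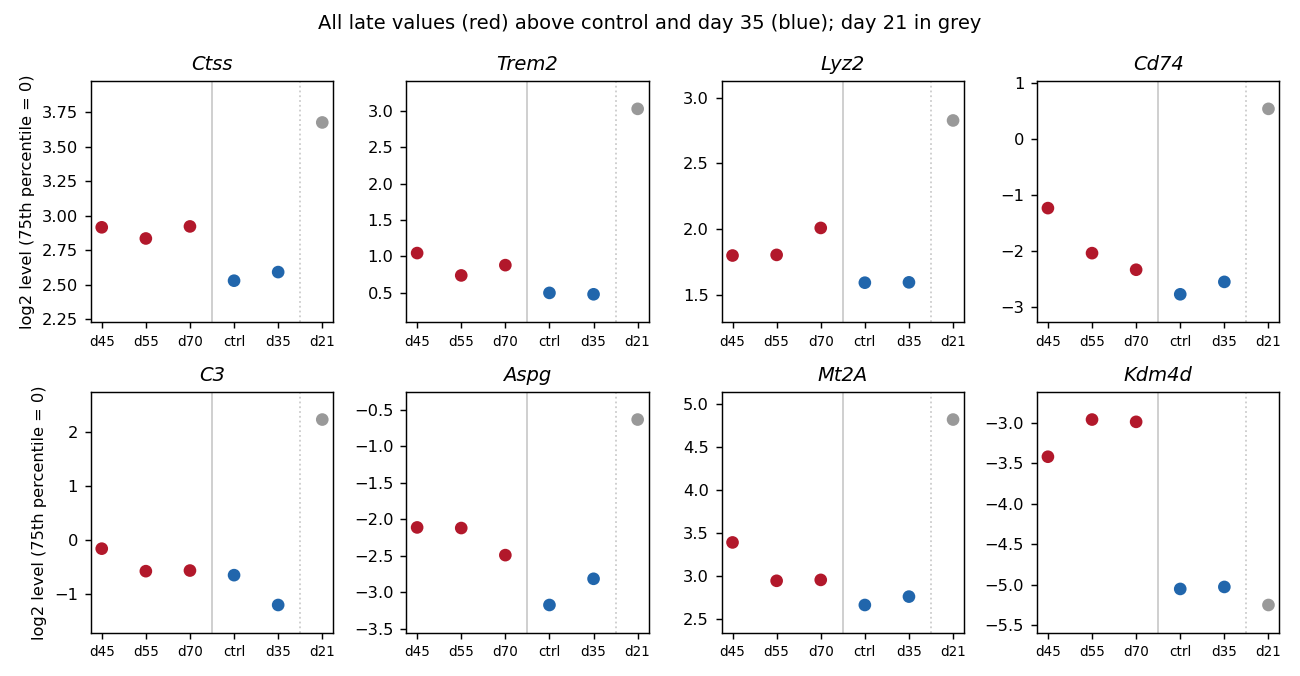
Log2 level (y axis, 0 is the 75th percentile of the array) of 8 genes with all late values above control and day 35, 1 point per array: days 45, 55 and 70 in red, control and day 35 in blue and day 21 in grey. Ctss and Kdm4d were called, and day 21 is the highest point in every panel but that of Kdm4d, where it is the lowest.

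Microglial markers had small positive differences, and limma called Ctss alone among them. Of 20 microglia and macrophage markers tested of 21 on the array, 7 did not overlap higher, 35% beside 8.44% of all genes. In the brightest tercile of genes that share was 13.1%, and only 4 of the 20 markers were in the dimmest. Another 2 did not overlap lower, 10% beside 17.2% of all genes. Of the 20 differences 14 were above 0, with a median of 0.13 beside -0.02 over all genes. The median was positive under every other scaling and with any 1 array left out, and -0.41 when day 21 was counted with control and day 35. The 7 were Ctss, Trem2, Fcer1g, Fcgr2b, C1qa, C1qb and Ptprc. C1qb, a chain of complement C1q, had 2.79, 2.64 and 2.75 late, against 2.41 in control and 2.57 on day 35. The members that did not overlap lower were Itgam, with a difference of -0.30, and Cd68, a lysosomal protein, with -0.28. Summed over the list, the level was 5.45 to 5.53 on the late arrays, against 5.33 in control and 5.29 on day 35, and it was 6.81 on day 21. On day 21, 19 of the 20 markers lay above all other arrays, beside 23.8% of all genes.

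Of 23 genes of antigen presentation and complement tested, 8 did not overlap higher, 34.8% beside 8.44% of all genes, and 3 did not overlap lower, 13.0% beside 17.2%. limma called 0 of the 23, and the list does not hold Cfi, the complement gene called lower above. The list had a median difference of 0.09, which was -0.38 with day 21 counted beside control and day 35. Cd74, the invariant chain of MHC class II, had -1.23, -2.03 and -2.33 late, against -2.77 in control and -2.55 on day 35, with 0.54 on day 21. RT1-Da, an MHC class II alpha chain, had -3.59, -4.55 and -4.88 late, against -5.89 in control and -4.88 on day 35. Among the late arrays both genes were highest on day 45. Their differences of 0.79 ± 0.30 and 1.04 ± 0.44 (SE) had adjusted p of 0.330 and 0.422 in limma. C3, the central complement protein, had -0.17, -0.58 and -0.57 late, against -0.66 in control and -1.21 on day 35. RT1-Db1, an MHC class II beta chain, went the other way, with -2.86, -3.14 and -3.24 late, against -2.32 in control and -2.44 on day 35. Some RT1 genes resemble each other in sequence, but RT1-Da and RT1-Db1 encode different chains. Whether probes of the list share signal was not tested. All 8 genes that did not overlap higher had day 21 above the late values.

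The interferon-induced genes had 2 of 20 members not overlapping higher and 2 lower, 10% each beside 8.44 and 17.2% of all genes. Their median difference was 0.10, which was -0.27 with day 21 added to control and day 35 and -0.05 without day 35. Ifit3, an interferon-induced inhibitor of viral mRNA, had a difference of 0.44 ± 0.31 and Gbp5, a guanylate-binding protein, one of -0.32 ± 0.16 (SE). Of 14 cytokines and NF-kappaB targets 2 did not overlap higher and 3 lower, 14.3 and 21.4% beside the same shares of all genes. There Nfkb2, a subunit of NF-kappaB, had a difference of -0.51 ± 0.12 and the chemokine Cxcl12 one of 0.45 ± 0.23 (SE). Neither list held a called gene.

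Of 18 genes of reactive astrocytes tested, 5 did not overlap higher, 27.8% beside 8.44% of all genes, and 3 lower, 16.7% beside 17.2%. limma called 2 lower, beside 2.93% of all genes and 7.16% of the dimmest tercile, which held 6 of the 18. The called ones were S1pr3, a sphingosine 1-phosphate receptor, and Nes, the intermediate filament nestin. S1pr3 had -5.09, -4.67 and -5.08 late, against -3.73 in control and -4.03 on day 35, and day 21 was at -4.99. It fell by 1.07 ± 0.20 (SE), with an adjusted p of 0.0375 in limma. Nes had -1.76, -1.68 and -1.73 late, against -0.98 in control and -1.25 on day 35, and fell by 0.61 ± 0.11 (SE), with a second probe at -0.57. Nes had C and T in 70% of its probe. The higher ones were Aspg, Serping1, Cp, Cd44 and Stat3, none of them called. For the 15 astrocyte markers tested, 4 did not overlap higher and 1 lower, 26.7 and 6.67% beside 8.44 and 17.2% of all genes. In the brightest tercile 13.1% of genes did not overlap higher. Of the 15 markers 0 were called. Gjb6, connexin 30, had a difference of 0.17 ± 0.07, and the glutamate transporter gene Slc1a2 one of -0.29 ± 0.20 (SE).

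Genes of the response to hypoxia had 3 calls among 24 tested, all lower, beside 2.93% of all genes. Of the 24, 2 did not overlap higher, 8.33% beside 8.44% of all genes, and 5 lower, 20.8% beside 17.2%. Car9, carbonic anhydrase 9, had -4.24, -4.14 and -4.15 late, against -3.04 in control and -3.05 on day 35. Pfkfb3, which makes the activator of phosphofructokinase, had -4.17, -4.20 and -4.36 late, against -3.27 in control and -3.34 on day 35. Hk2, hexokinase 2, had -5.45, -5.53 and -5.29 late, against -4.48 in control and -4.55 on day 35. They fell by 1.14 ± 0.12, 0.94 ± 0.13 and 0.91 ± 0.17 (SE), with adjusted p of 0.01, 0.0169 and 0.0372 in limma, and a second probe of Pfkfb3 had -0.46. All 3 called genes were in the dimmest tercile, where 7.16% of genes were called lower. The list as a whole had a median difference of -0.05, which was 0.02 with median scaling and also above 0 with quantile normalization and without day 35, and its bright glycolytic members differed little, with -0.05 ± 0.06 for Ldha and 0.06 ± 0.06 for Pgk1 (SE).

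The glucocorticoid response had 7 of 17 members that did not overlap higher, 41.2% beside 8.44% of all genes. Another 4 did not overlap lower, 23.5% beside 17.2%, and 1 was called lower, where 2.93% of all genes were. The called one was Hif3a, a hypoxia-inducible factor subunit, with -5.86, -5.29 and -5.48 late, against -4.30 in control and -4.29 on day 35. It fell by 1.25 ± 0.21 (SE), with an adjusted p of 0.028 in limma, but day 21, at -5.47, was as low as the late days. Sgk1, a kinase induced by glucocorticoids, had -0.14, -0.24 and -0.16 late, against -0.51 in control and -0.45 on day 35, with 0.13 on day 21. Its difference was 0.30 ± 0.07 (SE) and was not called, at an adjusted p of 0.104.

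Immediate early genes are those that neurons switch on with activity. Of 19 tested, 0 did not overlap higher and 1 lower, 0 and 5.26% beside 8.44 and 17.2% of all genes. That 1 was Fosb, also called lower, as were 2.93% of all genes. This subunit of the AP-1 factor had -1.43, -1.13 and -1.19 late, against 0.10 in control and -0.36 on day 35, with 0.08 on day 21. It fell by 1.12 ± 0.15 (SE), with an adjusted p of 0.015 in limma, while Egr1 differed by 0.01 ± 0.09 and Nr4a2 by -0.06 ± 0.07 (SE). Of 16 genes of neurogenesis and cell cycle, 7 did not overlap lower, 43.8% beside 17.2% of all genes, and 0 higher beside 8.44%. Sox11 and Nes were called lower. In the dimmest tercile, which held 8 of the 16, 31.5% of genes did not overlap lower and 7.16% were called lower. Sox11, a transcription factor of newborn neurons, had -5.42, -5.04 and -5.59 late, against -4.26 in control and -4.34 on day 35, and fell by 1.05 ± 0.21 (SE). Its day 21 level of -4.98 lay below control and day 35. Cdk1, a kinase of the cell cycle, had a difference of -0.47 ± 0.16 and Stmn2, a stathmin of growing axons, one of -0.12 ± 0.06 (SE), neither called.

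Vessel and blood genes held 1 call. Of 22 markers of endothelium and pericytes, 5 did not overlap lower, 22.7% beside 17.2% of all genes, and 2 higher, 9.09% beside 8.44%. Acta2, smooth muscle actin, was called, where 2.93% of all genes were called lower. It had -2.88, -2.64 and -2.91 late, against -1.88 in control and -1.92 on day 35, and fell by 0.91 ± 0.12 (SE), with an adjusted p of 0.014 in limma. Of 9 red blood cell genes 6 did not overlap lower, 66.7% beside 17.2% of all genes, and 0 were called. Their median difference was -0.57 and lay between -0.80 and -0.35 under all alternatives. Hbb, a beta globin, had 3.64, 4.25 and 3.80 late, against 4.37 in control and 4.36 on day 35, and Hba-a1, an alpha globin, had 4.45, 5.06 and 4.62 late, against 5.30 in control and 5.09 on day 35. Alas2, the first enzyme of heme synthesis in red cells, had a difference of -0.73 ± 0.17, and Ahsp, the alpha hemoglobin stabilizing protein, one of -0.77 ± 0.21 (SE). Globin genes are near-identical copies, and their probes may share signal. In bulk tissue fewer cells of a type and less RNA per cell cannot be told apart. For transport across the blood-brain barrier 18 members were tested. Of these, 2 did not overlap higher and 2 lower, 11.1% each beside 8.44 and 17.2% of all genes. Ager, a receptor for glycated proteins, had a difference of -0.50 ± 0.16 (SE), while the efflux pump gene Abcb1a had -0.55 ± 0.43.

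Neuronal gene groups differed little between the sets. Of 21 synaptic vesicle cycle genes 0 did not overlap higher and 1 lower, 0 and 4.76% beside 8.44 and 17.2% of all genes. Their median difference was -0.07, with a range of -0.16 to 0.17. Of 22 glutamate receptor and postsynaptic density genes 1 did not overlap higher and 3 lower, 4.55 and 13.6% beside the same shares. Among them Gria1, an AMPA receptor subunit on a 10-spot probe, had 1.36, 1.29 and 1.60 late, against 1.83 in control and 1.74 on day 35, with 1.28 on day 21. Its difference of -0.37 ± 0.10 (SE) was not called, at an adjusted p of 0.135 in limma. Gabrb2, a GABA-A receptor subunit, had -4.22, -3.92 and -4.01 late, against -3.35 in control and -3.44 on day 35, a difference of -0.65 ± 0.15 (SE) with an adjusted p of 0.0687. Potassium channel genes had 4 of 23 not overlapping lower, 17.4% beside 17.2% of all genes, and 0 higher, with a median of -0.10. Cholinergic genes had 2 of 13 not overlapping lower, 15.4%, with a median of -0.16. Markers of CA1 to CA3 pyramidal cells had a median of -0.02, of dentate granule cells -0.04 and of interneurons -0.05. None of these groups, nor GABA-A receptors and transport, had a called member. With median scaling the medians of the glutamate, GABA-A, pyramidal cell, granule cell and interneuron lists were above 0, at 0.01 to 0.04, so a direction of these lists rests on the scaling.

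Housekeeping groups were near 0. Ribosomal proteins, 46 tested, had a median difference of 0.02 and a range of -0.16 to 0.12, and oxidative phosphorylation genes, 33 tested, had 0.02. Rps7 had a difference of 0.12 ± 0.06, Uqcrq, a subunit of complex III, one of -0.26 ± 0.12, and the proteasome subunit gene Psmd11 one of -0.26 ± 0.10 (SE). Splicing factors had 5 of 27 members not overlapping higher, 18.5% beside 8.44% of all genes and 13.1% of the brightest tercile. Of the 27, 0 did not overlap lower, beside 17.2% of all genes, and the median was 0.04. Clk4, a kinase of splicing factors, had the widest difference of the 27, 0.29 ± 0.15 (SE), and was not called. In heat shock and the unfolded protein response, Trib3, a pseudokinase induced by stress, had -5.89, -5.67 and -5.77 late, against -4.24 in control and -4.98 on day 35. Its difference was -1.17 ± 0.25 (SE), with an adjusted p of 0.059 in limma. In antioxidant defence Gsta4, a glutathione transferase that handles lipid aldehydes, had 1.18, 1.24 and 1.20 late, against 0.95 in control and 1.03 on day 35, a difference of 0.21 ± 0.06 (SE) that was not called.

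Of 22 amyloid and tau processing genes 6 did not overlap lower, 27.3% beside 17.2% of all genes and 31.5% of the dimmest tercile, which held 7 of the 22. Of the 22, 0 did not overlap higher, beside 8.44% of all genes, and limma called 0. App, the amyloid precursor protein, had 2.48, 2.61 and 2.67 late, against 2.75 in control and 2.78 on day 35, with 2.69 on day 21. Bace2, a protease of the beta-secretase family, had a difference of -0.39 ± 0.15 (SE). In the circadian clock 3 of 18 genes did not overlap lower, 16.7% beside 17.2% of all genes. There Tef, a transcription factor with a daily rhythm, had 1.83, 0.82 and 0.50 late, against 1.33 in control and 2.26 on day 35. In apoptosis Casp1, the caspase of inflammasomes, had a difference of 0.34 ± 0.17 and Bbc3, the BH3 protein PUMA, one of 0.20 ± 0.11 (SE). Among neurotrophic genes the growth factor Fgf1 had -0.43 ± 0.17 and Cntfr, a receptor of ciliary neurotrophic factor, -0.45 ± 0.28 (SE).

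None of the remaining named members was called by limma. The differences of neuronal markers and synaptic genes were -0.18 ± 0.08 for Lypd1, -0.15 ± 0.13 for Wfs1, -0.53 ± 0.31 for Lct, 0.31 ± 0.17 for Dsp, -0.26 ± 0.26 for Calb2 and -0.25 ± 0.21 for Nos1 (SE). Rims1 had 0.17 ± 0.16, Sv2b -0.16 ± 0.10, Shank1 -0.27 ± 0.12, Slc6a11 -0.42 ± 0.28, Chrna4 -0.48 ± 0.19, Chrnb2 -0.46 ± 0.23, Kcnj9 -0.36 ± 0.17 and Kcnj3 -0.30 ± 0.15 (SE). Markers of other cells and regions had -0.32 ± 0.17 for Mbp and -0.26 ± 0.18 for Ugt8, both of myelin, 0.45 ± 0.24 for Aldh1a2 and -0.43 ± 0.13 for Col1a1 of the meninges, 0.18 ± 0.17 for Igfbp2 of the choroid plexus and -0.25 ± 0.15 for Drd2 and -0.23 ± 0.16 for Tac1 of the striatum (SE). Of these neuronal and marker genes the 2 sets of arrays did not overlap in Lypd1, Dsp, Sv2b, Shank1, Chrna4, Kcnj9 and Col1a1. In the metabolic lists Cry2 had -0.36 ± 0.13, Insig2 0.17 ± 0.25, Sdf2l1 0.23 ± 0.20, Txnrd1 -0.18 ± 0.14, Psmb5 -0.19 ± 0.12, Rpl7a -0.16 ± 0.08, Atp5f1b -0.18 ± 0.14, Srsf7 0.24 ± 0.16 and Ide -0.19 ± 0.11 (SE).

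In all, 7 of the 37 lists held a called gene, 10 of 703 listed genes measured, and 30 lists held none. Over all genes 367 of 12447 were called.

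**Figure D5:**
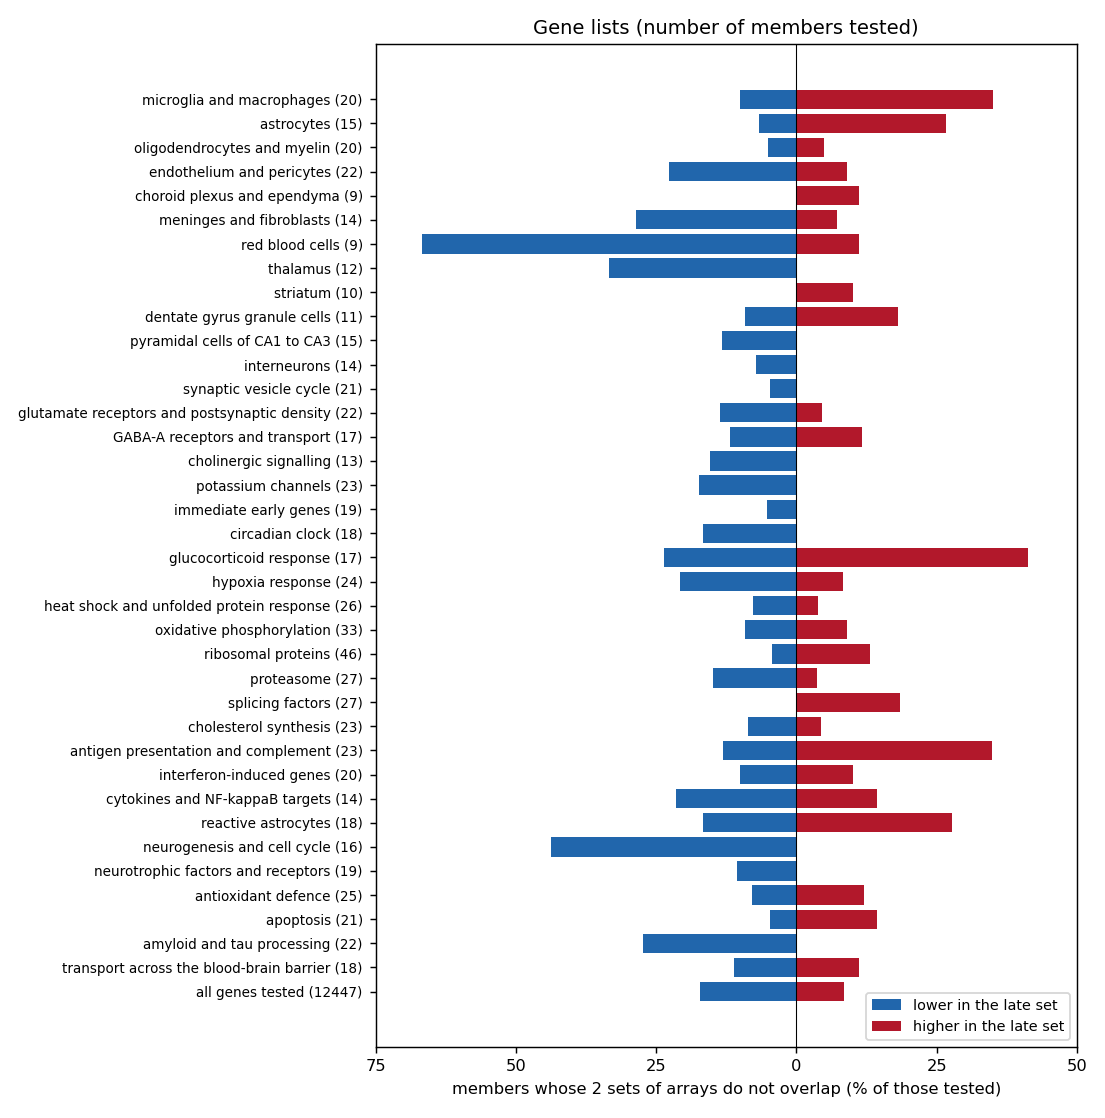
Share of the tested members of each list (x axis, %) whose 2 sets of arrays did not overlap, lower in the late set to the left in blue and higher to the right in red, with the number tested in brackets. The lowest row gives all 12447 genes, 17.2% lower and 8.44% higher.

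Markers of neighbouring tissue were read beside these results. Ttr, transthyretin of the choroid plexus, had 1.50, 1.48 and 5.44 on days 45, 55 and 70, against 1.53 in control and 4.69 on day 35, with 5.66 on day 21. It was thus high on 1 late array and on day 35 and low on the other 3 of the 5, so it did not follow the 2 sets. The summed level of 9 choroid plexus and ependyma markers ran between 2.63 and 5.59 on the late arrays, against 2.65 in control and 4.91 on day 35. Of 12 thalamus markers 4 did not overlap lower, and 0 higher beside 8.44% of all genes, with a median difference of -0.26. The 4 were 33.3%, beside 17.2% of all genes and 31.5% of the dimmest tercile, which held 7 of the 12. Synpo2 and Patj differed most, by -0.77 ± 0.20 and -0.82 ± 0.35 (SE). The summed level of the list was 0.88 to 1.26 late, against 1.16 in control and 1.48 on day 35. Slc17a6, the glutamate transporter of thalamic neurons, had -1.57, -1.40 and -1.88 late, against -1.25 in control and -1.04 on day 35. The part of carried-over tissue in the other results was not tested. Of 320 spots for spiked-in RNA, between 6 and 16 per array were well above background, so no spiked-in RNA served to compare the slides.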

How the data were processed

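RNA of 6 hippocampal pools was measured, 1 array per group, on 1-colour Agilent arrays of design 028282 (probe positions in build rn4). The authors deposited scanner files of Agilent Feature Extraction 10.7.3.1 (protocol GE1_107_Sep09), per the file headers. The intensity used is the processed signal of that software, and how it treats background was not checked. The labels name Cy5, while the files hold the green channel. A deposited intensity table served as an alternative. How it was made is not given by the sources at hand. Its rank correlation with mean signal minus local background was 0.9998 to 0.9999 per array. With the processed signal it was 0.996 to 0.998.

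Outlier spots, 346 to 459 on the 5 arrays, were left out. The log2 intensity minus the 75th percentile of the array was averaged over spots of a probe. Of 30367 probes, 9917 were not well above background on all 5 arrays and 106 were saturated on all 5, which left 20344. Gene names came from the files' accessions and symbols through a RefSeq table (GRCr8, names only), which named 17456 genes. A gene was represented by its tested probe with the highest mean signal. In 9 genes the probe was saturated on all arrays of 1 set, which leaves their difference a bound.

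limma 3.58.1 (R 4.3.3; lmFit, eBayes with an intensity trend) fitted the 3 late arrays against control and day 35, without a slide term, which the sets leave no room for. On simulated data of these 20344 probes it recovered 127 of 200 probes changed 2-fold and made 10 wrong calls. The simulated noise was normal and independent between arrays, with no shift by slide, level or base composition. The 10 wrong calls therefore do not measure the share of wrong calls in the real data. Summaries used Python 3.11.15.

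Named genes followed a rule on genes with a full symbol. It took the 8 called genes with the largest difference in each direction, 6 in the brightest tercile and 4 among probes printed 10 times, filled by the widest gap where calls ran out. In each list it took up to 3 called members, or otherwise the 2 with the largest difference. Some genes that the rule names are not reported here. Other genes of a list were named after their values were seen. The comparison, the lists and the families were chosen with earlier results of these data known. Alternatives covered background correction, normalization, filters, the choice of probes, the trend, day 21 and each array left out.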

Additional observations from a re-analysis of the deposited data

How the results depend on the processing

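No paired analysis was possible because each group had 1 array. With normexp limma called 229 genes lower and 1 higher, with quantile normalization 221 and 8, with median scaling 334 and 5, on the deposited values 205 lower and 5 higher, without the intensity trend 438 and 4, and with centring by level and base composition, added after seeing the data, 102 and 1. Among probes above the median signal 584 genes did not overlap lower, and limma called 2 lower and 0 higher. Genes that did not overlap higher numbered 2090 with quantile normalization, 2560 with median scaling, 2071 on the deposited values, 1807 with cyclic loess, also added later, and 1599 with the centring. With day 21 counted beside control and day 35 the numbers not overlapping were 1341 lower and 551 higher. With 1 array left out, 2848 to 4151 genes did not overlap lower and 1616 to 3035 higher, more by construction since fewer arrays must agree. limma then called 0 to 307 lower and 0 to 3 higher, where a lone control or day 35 array was assumed to vary like the late ones.

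With day 21 added the sign turned for Ctss (-0.041), Aspg (-0.033), Trem2 (-0.45), Lyz2 (-0.13), Mt2A (-0.32), Ripk3 (-0.46), Igfbp2 (-0.51), Aldh1a2 (-0.12), Sdf2l1 (-0.11), RT1-Da (-0.078), Cd74 (-0.27), Ifit3 (-0.17), Casp1 (-0.058), Wfs1 (0.098) and Atp5f1b (0.0002). Nos1 turned to 0.17 with quantile normalization, 0.11 in the deposited table and 0.0024 with cyclic loess, and with the centring Lct turned to 0.050 and Chrnb2 to 0.030. With 1 array left out, the sign also turned within the ranges of Ttr (-1.89 to 1.28), Igfbp2 (-0.0072 to 0.37), Tac1 (-0.46 to 0.0028), Wfs1 (-0.31 to 0.0084), Calb2 (-0.61 to 0.078), Slc6a11 (-0.86 to 0.017), Sdf2l1 (-0.11 to 0.56), Insig2 (-0.090 to 0.37) and Abcb1a (-1.29 to 0.20). The cause was not tested.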

Other observations

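Probes outside the comparison showed the same asymmetry. On both the control and the day 35 array, and on none of the 3 late arrays, 564 probes were well above background, of which 263 were so on day 21 too. The reverse, well above background on all 3 late arrays and on neither control nor day 35, held for 13 probes, of which 2 were so on day 21. Since these probes were below the detection limit on 1 side, their differences are bounds and entered no count.

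Among other probes of the same genes, 32 genes called lower had a second tested probe. Of those 32 probes 22 had a negative difference, 14 did not overlap lower and 2 were called lower, with a median difference of -0.28. Of all 2340 such further probes 554 did not overlap lower and 79 were called lower, with a median difference of -0.07. Of 265 further probes of genes that did not overlap higher, 121 had a positive difference.

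Probes called lower lay in the first of 2 equal parts of the array's rows in 61.8% of cases, against 49.9% of all tested probes, and 1.07% of them were printed 10 times, against 6.04%. The part of either in the result was not tested.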
